A study of Homo sapiens with 8 samples.

Results

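MFAP3, AMIGO2, IL7R, DCLK1, RASD1, SP5 and CRABP2 are 7 genes whose mRNA differed in the same direction between cells with a TAF7 hairpin and cells with a control hairpin in both lines of the study. They were picked for that direction from the table of read counts per gene, which held 61552 genes, and all 7 were among the 15923 genes that passed the low-count filter. MFAP3, AMIGO2 and IL7R were lower with the TAF7 hairpin, to between 35.6% and 52.2% of the control level. DCLK1, RASD1, SP5 and CRABP2 were higher, between 1.85-fold and 2.77-fold. Because the knockdown effects chose the genes, all values that rest on these effects, their ranks and their differences between the lines included, are a description with no test. The difference between the lines averaged over both hairpins, the promoter sequences, neighbouring genes and related genes were not used to choose them. The levels of single groups make up the knockdown effects, so comparisons between groups follow in part from the choice.

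TAF7 is a subunit of TFIID, the complex that binds core promoters and helps to place RNA polymerase II at the start of genes. TAF7 binds TAF1, the large subunit of TFIID, and inhibits its acetyltransferase activity. The 7 genes have no common pathway: they encode membrane and matrix-associated proteins (MFAP3, AMIGO2, IL7R), signalling proteins inside the cell (DCLK1, RASD1), a transcription factor (SP5) and a carrier of retinoic acid (CRABP2).

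The libraries come from MDA-MB-231, an established human breast cancer line, and from its subline MDA231-LM2, called LM2 here and known for metastasis to the lung, and were made from enriched mRNA. Each line carried a control hairpin or a hairpin against TAF7, which gives 4 groups of 2 libraries, numbered 2 and 3, and all groups were grown in the same medium. The titles name a single TAF7 hairpin, number 3, so an effect of TAF7 loss and an effect of that hairpin on other transcripts cannot be told apart. Nothing in the labels tells whether both libraries of a group stem from separate cultures, and the p-values then measure the spread between these libraries, which may be technical.

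The 8 libraries held 17217776 to 20292291 counted reads, so that 1 read corresponded to 0.0488 to 0.0583 CPM, the counts scaled to library size. Reads were found for 24762 and 24490 genes in the LM2 control libraries and for 22296 to 23434 genes in the other 6. The 7 mesenchymal markers, among them VIM and AXL, summed to 605 to 857 FPKM (fragments scaled to gene length and library total) per library. The 7 luminal and hormone receptor markers summed to 11.5 to 13.3 FPKM. Of these, ERBB2 had 5.18 to 6.77 FPKM, EPCAM 2.22 to 4.27, GATA3 1.26 to 2.65 and FOXA1 0.4 to 2.14. The estrogen receptor gene ESR1 reached at most 0.02 FPKM and E-cadherin (CDH1) at most 0.03 FPKM, and PGR had 1 read. TAF7 itself measured 179.2 and 184.6 CPM in the MDA-MB-231 controls and 107.6 and 105.4 CPM with the TAF7 hairpin. In LM2 it measured 195.3 and 196.5 CPM in the controls and 142.3 and 148.3 CPM with the hairpin. The log2 fold change of TAF7 was -0.77 ± 0.07 in MDA-MB-231 (± standard error of the fit, here and below) and -0.43 ± 0.07 in LM2, with edgeR adjusted p-values of 4.01e-12 and 8.42e-07 (n = 2 libraries per group).

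The promoters are shown because TFIID recognises core promoter elements, and because these 7 genes differed in the same way in both lines. Each line gives the bases that end just before an annotated start (RefSeq, GRCh38.p14), 5′ to 3′ on the strand of the gene. Capitals mark matches, on either strand, to 9 short motifs: the TATA box (TATAAA), the CCAAT box (CCAAT), the GC box bound by SP factors (GGGCGG), an ETS site (CCGGAAGT), an AP-1 site (TGACTCA), the CRE (TGACGTCA), a MYC-type E box (CACGTG) and the TCF sites ATCAAAG and TTCAAAG. The motifs were chosen with these sequences in view, and no match overlapped another.
MFAP3, chr5:154038911-154038966, plus strand: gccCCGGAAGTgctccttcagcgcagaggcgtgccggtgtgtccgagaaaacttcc
AMIGO2, chr12:47079960-47080059, minus strand: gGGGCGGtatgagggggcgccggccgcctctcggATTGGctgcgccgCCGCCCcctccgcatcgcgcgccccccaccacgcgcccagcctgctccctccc
IL7R, chr5:35856791-35856890, plus strand: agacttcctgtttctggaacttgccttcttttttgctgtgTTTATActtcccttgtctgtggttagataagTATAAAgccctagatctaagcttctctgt
DCLK1, chr13:36131940-36132039, minus strand: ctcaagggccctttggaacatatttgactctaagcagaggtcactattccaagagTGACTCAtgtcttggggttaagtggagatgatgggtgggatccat
RASD1, chr17:17496396-17496495, minus strand: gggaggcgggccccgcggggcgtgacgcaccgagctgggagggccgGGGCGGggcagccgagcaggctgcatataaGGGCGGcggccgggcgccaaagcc
SP5, chr2:170715187-170715336, plus strand: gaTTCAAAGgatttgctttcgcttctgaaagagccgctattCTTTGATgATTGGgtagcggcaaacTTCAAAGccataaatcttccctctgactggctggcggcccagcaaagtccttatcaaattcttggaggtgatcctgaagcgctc
CRABP2, chr1:156705785-156705884, minus strand: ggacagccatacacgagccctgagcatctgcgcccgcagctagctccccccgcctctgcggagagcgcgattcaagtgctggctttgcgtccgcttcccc

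Over the 250 bases before the start, the promoters ran from 43.6% GC in IL7R, with 0 CpG, to 78.0% GC in RASD1, with 31 CpG. SP5 (45.6% GC, 6 CpG) and the first start of DCLK1 (54.0% GC, 2 CpG) were also below the median of 58.0% GC and 11.0 CpG over the 35116 RefSeq windows of that length. CRABP2 (65.6% GC), MFAP3 (67.6% GC) and AMIGO2 (73.2% GC) were above it. DCLK1 has other annotated starts, with 68.8% GC and 22 CpG before the second and 50.8% GC and 5 CpG before the third, and the files do not tell which start was used. For AMIGO2 the sequence shown and the 73.2% GC belong to its second annotated start, and its first, nearby, had 74.4% GC. Both the 3 genes with lower mRNA and the 4 with higher mRNA thus held promoters below and above the median GC content.

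Of the 7 sequences, that of IL7R had the TATA box letters on the gene's strand, with the first base 29 bases before the start. TATAAA occurred on either strand in 10.7% of the 35116 windows. The 56 bases shown for MFAP3 are the whole gap to the neighbouring gene FAM114A2, and its CCGGAAGT match, found in 3.42% of windows, began 53 bases before the start. RASD1 had a pair of GGGCGG matches within 54 bases of its start, and AMIGO2 had 1 on each strand, beside a CCAAT match. GGGCGG was present in 42.6% of windows and CCAAT in 32.0%. The TGACTCA match of DCLK1 began 45 bases before its first annotated start, and 4.20% of windows held such a match. The windows are 250 bases long, longer than the sequences shown. Over that length AMIGO2 held TGACTCA too, 231 and 223 bases before its first and second start. The third start of DCLK1 had it at 224 bases, on the opposite strand.

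The SP5 promoter held 3 TCF matches between 148 and 84 bases before the start, with a CCAAT match on the opposite strand among them. TCF factors are the DNA-binding partners of β-catenin in Wnt signalling, and SP5 is known as a Wnt target gene. At least 3 matches of either TCF form occurred in 7 of the 35116 windows (0.0199%), that of SP5 included. Both forms and the cut of 3 were set with the SP5 sequence in view, so this share is no test of SP5. At least 1 match to ATCAAAG was held by 2.26% of windows, and to TTCAAAG by 3.80%. The third start of DCLK1 had ATCAAAG too, 93 bases before it on the opposite strand. CRABP2 held none of the 9 motifs in its 250 bases. A match is a run of letters, not a measured binding site.

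**Figure D1:**
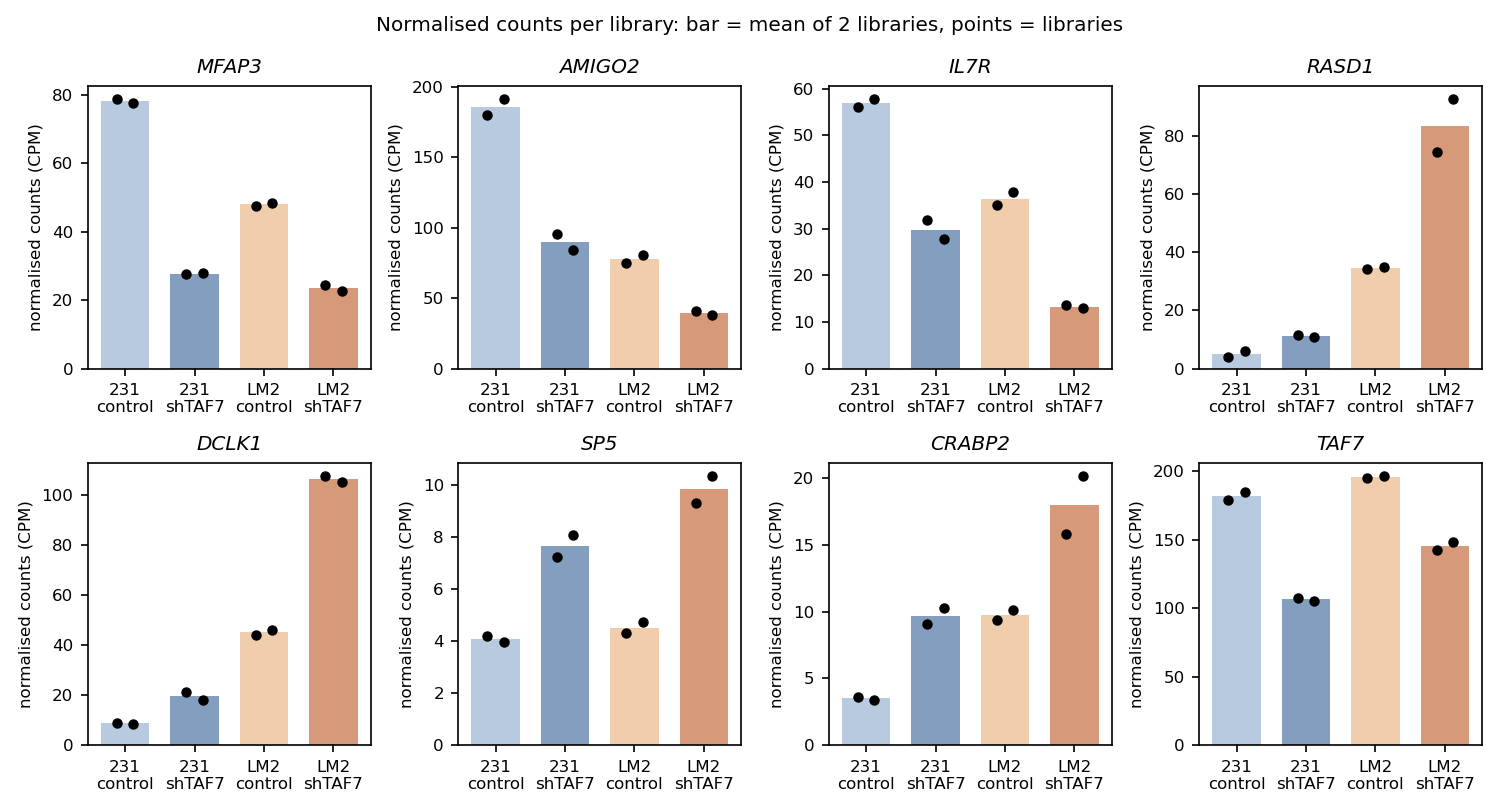
Normalised counts in CPM (vertical axis, starting at 0, with a scale for each gene) of the 7 genes and TAF7 in the 4 groups. Bars are means of 2 libraries and points are the libraries. RASD1 and DCLK1 are highest in LM2 with the TAF7 hairpin (83.4 and 106.6 CPM). In each line the control and shTAF7 points of every gene lie apart, from which nothing is read, since the knockdown effects chose the genes. Of the genes called alike in both lines, 962 of 983 higher and 621 of 654 lower ones averaged 5 CPM or more without overlap.

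MFAP3 encodes a membrane glycoprotein named for its association with microfibrils, the fibres on which elastin is laid down. Its 4 values in MDA-MB-231 were 78.6 and 77.4 CPM in the controls and 27.6 and 27.8 CPM with the TAF7 hairpin. In LM2 they were 47.6 and 48.3 CPM in the controls and 24.4 and 22.7 CPM with the hairpin. The libraries of a group lay close together, and the TAF7-hairpin libraries were the low ones in both lines, at 35.6% and 49.1% of their control. The log2 fold changes were -1.49 ± 0.08 in MDA-MB-231 and -1.03 ± 0.09 in LM2. In RNA from whole cultures, less MFAP3 in every cell and a loss of it in some of the cells cannot be told apart, and the same holds for the other 6 genes.

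AMIGO2 encodes a membrane protein with leucine-rich repeats that takes part in cell adhesion and was first described in neurons. It measured 180.5 and 191.2 CPM in the MDA-MB-231 controls and 95.9 and 84.2 CPM with the TAF7 hairpin. The LM2 controls had 75.3 and 81.0 CPM, and the LM2 libraries with the hairpin 40.9 and 38.2 CPM. All MDA-MB-231 libraries, with either hairpin, were above all LM2 libraries, and within each line the hairpin libraries were the low ones. They stood at 48.4% of the control in MDA-MB-231 and at 50.6% in LM2, log2 fold changes of -1.05 ± 0.07 and -0.98 ± 0.08.

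IL7R encodes the α chain that the receptors for interleukin-7 and TSLP have in common, best known from lymphocytes. Counts were 56.1 and 57.7 CPM in the MDA-MB-231 controls and 31.8 and 27.7 CPM with the TAF7 hairpin. They were 34.95 and 37.9 CPM in the LM2 controls and 13.6 and 12.9 CPM with the hairpin. The lowest libraries of all were the LM2 libraries with the hairpin, at 36.4% of their control, against 52.2% in MDA-MB-231. The log2 fold changes were -0.94 ± 0.09 in MDA-MB-231 and -1.46 ± 0.10 in LM2. Of 9 lymphocyte markers, all were under 1 FPKM in every library, 4 had no read, and their sum was 0.02 to 0.18 FPKM, so that IL7R was read in libraries with almost no lymphocyte transcripts.

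DCLK1 encodes a kinase with a doublecortin domain that binds microtubules; it is known from neurons and as a marker of tuft cells in the gut. It measured 8.995 and 8.56 CPM in the MDA-MB-231 controls and 21.3 and 18.1 CPM with the TAF7 hairpin. In LM2 the controls had 44.0 and 46.1 CPM and the hairpin libraries 107.7 and 105.4 CPM. Here the hairpin libraries were the high ones in both lines, by 2.23-fold and 2.36-fold, and every LM2 library was above every MDA-MB-231 library. The log2 fold changes were 1.16 ± 0.11 and 1.24 ± 0.08, and on log2 FPKM with a pseudocount of 1 that of MDA-MB-231, where DCLK1 stood at 0.615 FPKM in the controls, was 0.55. All 5 tuft cell markers and all 8 neuron markers were under 1 FPKM in every library, with sums of 0.33 to 0.73 and of 0.59 to 1.06 FPKM. DCX, the founding member of the doublecortin family, had no read.

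RASD1 encodes a small GTPase of the RAS family that glucocorticoids induce. Its counts were 3.95 and 5.99 CPM in the MDA-MB-231 controls and 11.5 and 10.9 CPM with the TAF7 hairpin. The LM2 controls had 34.1 and 34.7 CPM and the LM2 hairpin libraries 74.4 and 92.5 CPM. The hairpin libraries were 2.26-fold and 2.43-fold above their controls, and the LM2 controls were already above all MDA-MB-231 libraries. The MDA-MB-231 controls rested on 76 and 107 reads and differed by more than those of the other 6 genes in relation to their mean (4.97 ± 1.44 CPM, SD, n = 2). The log2 fold changes were 1.18 ± 0.15 in MDA-MB-231 and 1.28 ± 0.09 in LM2.

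SP5 encodes a zinc finger transcription factor of the SP/KLF family. It was among the lowest of the 7, with 4.21 and 3.97 CPM in the MDA-MB-231 controls and 7.23 and 8.10 CPM with the TAF7 hairpin. In LM2 it had 4.29 and 4.74 CPM in the controls and 9.32 and 10.3 CPM with the hairpin. The control libraries of both lines were close in level without overlapping (4.09 ± 0.17 and 4.51 ± 0.313 CPM, SD, n = 2), and the hairpin libraries were higher by 1.88-fold and 2.18-fold. The log2 fold changes were 0.91 ± 0.18 and 1.12 ± 0.17.

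CRABP2 encodes a protein that carries retinoic acid from the cytoplasm to its nuclear receptors. It had 3.59 and 3.41 CPM in the MDA-MB-231 controls and 9.04 and 10.3 CPM with the TAF7 hairpin. In LM2 the controls had 9.36 and 10.1 CPM and the hairpin libraries 15.8 and 20.2 CPM. MDA-MB-231 cells with the TAF7 hairpin and LM2 controls overlapped, with a ratio of the means of 0.991. The hairpin libraries were 2.77-fold above the controls in MDA-MB-231 and 1.85-fold in LM2, log2 fold changes of 1.47 ± 0.17 and 0.89 ± 0.14.

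The 7 genes were set against all genes tested. With the TAF7 hairpin 25.6% of genes were called in MDA-MB-231 (12.6% higher and 12.9% lower) and 41.3% in LM2 (21.8% higher and 19.4% lower), at a Benjamini-Hochberg adjusted p under 0.05 in edgeR. Calls in both lines in the same direction were 983 higher genes (6.17% of those tested) and 654 lower genes (4.11%), and a further 3.88% were called in opposite directions. The 7 genes were chosen from the former, so nothing is read from their being called. The number called in the same direction, 1637, depended on the libraries: it was 840 without MDA-MB-231 control 2 and 944 without MDA-MB-231 control 3.

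The place of the 7 within that list describes the choice, since they were picked from these same fold changes. Ranked by the smaller of the 2 absolute log2 fold changes, among genes that averaged 5 CPM or more and whose groups did not overlap in either line, the typical gene changed little: the median was 0.289 over 962 higher genes and 0.292 over 621 lower genes. RASD1, DCLK1, SP5 and CRABP2 held ranks 1 to 4 of the higher genes. The next gene was FAM24B (0.84 in MDA-MB-231 and 1.12 in LM2), just below CRABP2. MFAP3, AMIGO2 and IL7R held ranks 4 to 6 of the lower genes and were followed by CYRIA (-0.86 and -1.11). Those ahead of them were SAA1 (-1.91 and -4.70), which encodes an acute-phase protein and whose reads may be shared with the near-identical SAA2, TGFB2 (-1.18 and -1.24), which encodes a ligand of the TGF-β pathway, and VGLL3 (-1.16 and -1.23), which encodes a cofactor of TEAD factors. At least 2-fold in both lines were 2 higher genes, RASD1 and DCLK1, and 4 lower genes, of which MFAP3 was 1.

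**Figure D2:**
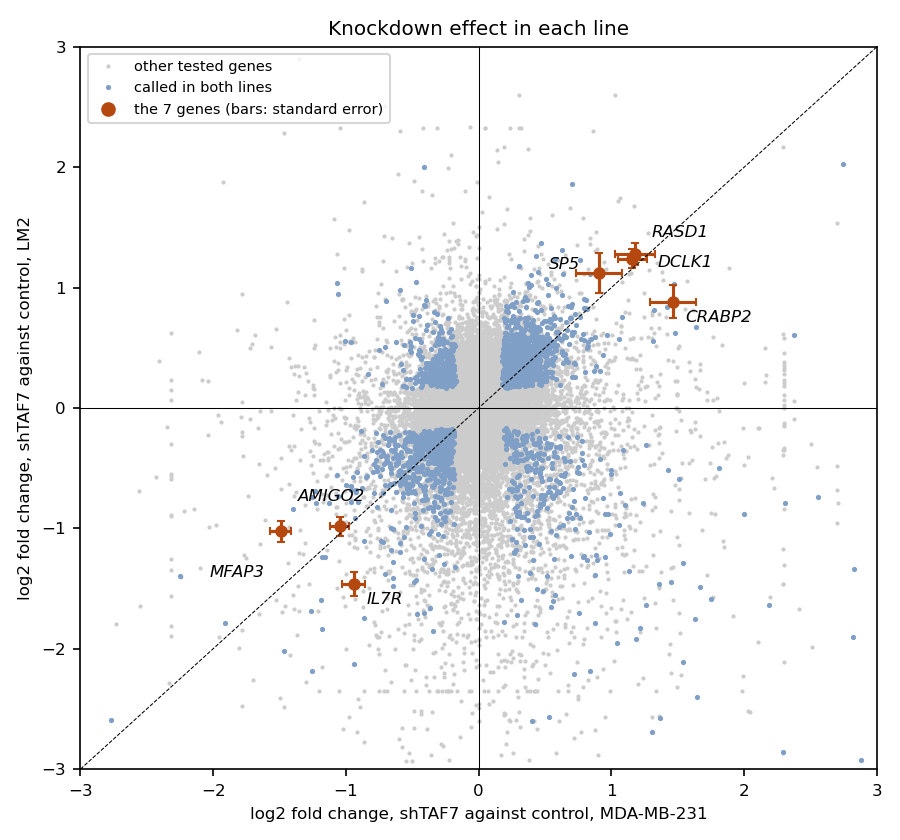
Log2 fold change of shTAF7 against control in MDA-MB-231 (horizontal) and LM2 (vertical) for the tested genes; grey points are genes not called in both lines, blue points genes called in both, orange points the 7 genes with their standard errors, and the dashed line marks equal change. The 7 genes lie away from the mass of points around 0, with IL7R below the line and MFAP3 above it; 153 genes beyond 3 on either axis are not drawn.

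The size of the knockdown effect was not the same in both lines for every gene. The difference between the effects (LM2 minus MDA-MB-231) comes from the contrasts that chose the genes, so the values of the 7 are given with their standard errors and without a test. Of all genes tested, 25.8% were called for such a difference, 13.9% higher and 11.9% lower, from which nothing is read about the 7. MFAP3 was lowered less in LM2, with a difference of 0.47 ± 0.12 on the log2 scale. TAF7 itself was lowered less in LM2 too, by 0.34 ± 0.10 (edgeR adjusted p = 0.00544, and 0.0511 without MDA-MB-231 control 3). IL7R was lowered more in LM2, with a difference of -0.52 ± 0.13, and CRABP2 was raised less there, with a difference of -0.58 ± 0.22. For AMIGO2, DCLK1, RASD1 and SP5 the differences were smaller than their standard errors, at 0.06 ± 0.11, 0.08 ± 0.14, 0.10 ± 0.19 and 0.22 ± 0.25, which leaves room for a difference in either direction.

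**Figure D3:**
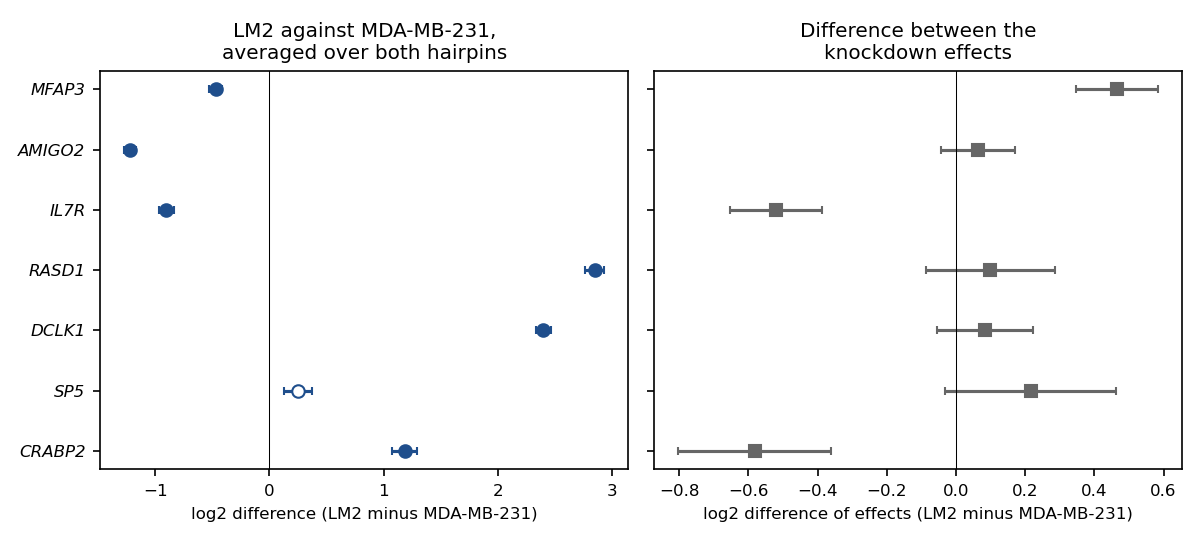
Log2 difference between LM2 and MDA-MB-231, averaged over both hairpins (left), and log2 difference between the knockdown effects of the lines (right), with standard errors. On the left, filled circles passed an adjusted p of 0.05 in edgeR (6 of the 7 genes, from AMIGO2 at -1.22 to RASD1 at 2.85) and the open circle did not; the grey squares on the right are untested and run from CRABP2 at -0.58 to MFAP3 at 0.47.

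The lines also differed in the level of most of these genes, whichever hairpin they carried. RASD1 was 7.20-fold higher in LM2 than in MDA-MB-231 as an average over both hairpins, a log2 difference of 2.85 ± 0.09 (edgeR adjusted p = 2.8e-32). DCLK1 was 5.28-fold higher (2.40 ± 0.07, edgeR adjusted p = 1.23e-33) and CRABP2 2.27-fold higher (1.18 ± 0.11, edgeR adjusted p = 1.39e-13). AMIGO2 was lower in LM2 by -1.22 ± 0.05 on the log2 scale (edgeR adjusted p = 2.6e-25), IL7R by -0.90 ± 0.07 (edgeR adjusted p = 6.16e-17) and MFAP3 by -0.47 ± 0.06 (edgeR adjusted p = 1.05e-09). SP5 did not pass the test, at 0.25 ± 0.12 (edgeR adjusted p = 0.0674), though limma on log2 FPKM called it (adjusted p = 0.0333 and 0.0335 with pseudocounts of 1 and 0.1).

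So 6 of the 7 were called between the lines, 3 higher and 3 lower in LM2, beside 71.3% of all genes tested (35.7% higher and 35.6% lower), so the count itself says little about these genes. Knockdown and line comparisons use the same 8 libraries, so their values stand side by side without a measure of agreement. Within the controls alone, LM2 held 6.92 times the RASD1, 5.13 times the DCLK1 and 2.79 times the CRABP2 of MDA-MB-231. For AMIGO2, MFAP3 and IL7R it was the MDA-MB-231 control that was higher, 2.38, 1.63 and 1.56 times. From the MDA-MB-231 control to LM2 with the TAF7 hairpin, the mean of RASD1 differed 16.8-fold and that of DCLK1 12.1-fold. These last ratios contain a knockdown effect that chose the genes.

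Per length of gene, the order of the 7 changed across the groups. In the MDA-MB-231 controls AMIGO2 led with 47.6 FPKM, followed by IL7R (9.59), MFAP3 (7.79), CRABP2 (3.28) and RASD1 (2.89), SP5 (2.00) and DCLK1 (0.615); CRABP2 and RASD1 overlapped, and the other neighbours did not. In MDA-MB-231 with the TAF7 hairpin AMIGO2 still led with 22.8 FPKM, but CRABP2 (8.97) and RASD1 (6.44) now stood above IL7R (4.96), and SP5 (3.71) above MFAP3 (2.74), with DCLK1 (1.37) last. In the LM2 controls AMIGO2 (20.4 FPKM) and RASD1 (20.3 FPKM) overlapped at the top, then came CRABP2 (9.32), IL7R (6.26), MFAP3 (4.88), DCLK1 (3.23) and SP5 (2.25). With the TAF7 hairpin in LM2 the order was RASD1 (45.1 FPKM), CRABP2 (15.7), AMIGO2 (9.44), DCLK1 (6.98) and SP5 (4.49), and the lowest, MFAP3 (2.20) and IL7R (2.09), overlapped. AMIGO2, IL7R and MFAP3 were thus the top of the order in the MDA-MB-231 controls, while MFAP3 and IL7R were the bottom of it in LM2 with the hairpin. Shifts in the order between control and TAF7 hairpin follow in part from the choice of the genes.

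Each gene had others with a similar course over the 8 libraries, measured as Pearson's r of log2 CPM among 10750 genes with a mean of at least 5 CPM. The 8 points fall into 4 groups that share hairpins and lines, so r mostly reflects the order of 4 group means and is given without a test. Genes close to RASD1 were FUT11 (r = 0.998) and ADK (r = 0.997), the latter for adenosine kinase. DCLK1 was closest to COMMD3 (r = 0.995), ahead of ACOT2 and EPS8L1. CRABP2 was closest to NAT14 (r = 0.996), SH3BGRL3 and ATP5IF1, and SP5 to CCHCR1 (r = 0.987), TECR and CAPNS1. For AMIGO2 it was KLHL5 (r = 0.994), then RALGAPB and IGF2BP3, an RNA-binding protein gene; for IL7R it was MIDEAS (r = 0.991), then PDE10A and KSR1. MFAP3 was closest to AP3M2 (r = 0.991), a subunit of the AP-3 adaptor complex, then to NKIRAS2 and FAM126A.

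The courses of these genes were similar in order but smaller in size. With the TAF7 hairpin ADK had log2 fold changes of 0.33 (MDA-MB-231) and 0.37 (LM2), and NKIRAS2 of -0.92 and -0.53. Among the 7 themselves, DCLK1 and RASD1 had the highest r (0.990), AMIGO2 and IL7R 0.956, and AMIGO2 and CRABP2 the most negative (-0.980).

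Values of the genes next to the 7 are given here, and whether a change ran along the chromosome was not tested. Some neighbours had few reads in all, with 356 for PCED1B and 79 for ERICH2-DT. Neighbours were taken from RefSeq (GRCh38.p14). MFAP3 (chr5:154038967-154057450) lies 56 bases from FAM114A2, and FAM114A2 did not pass the test in either line (-0.17 ± 0.10 and -0.18 ± 0.09, edgeR adjusted p = 0.209 and 0.116). PCED1B, which overlaps AMIGO2 (chr12:47075707-47079959), and SPEF2, 42279 bases from IL7R (chr5:35856891-35879603), were not called in either line (edgeR adjusted p = 0.554 and 0.593 for PCED1B, 0.433 and 0.0613 for SPEF2).

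Beside RASD1 (chr17:17494437-17496395), MED9, which encodes a Mediator subunit and lies 1215 bases away, was not called (edgeR adjusted p = 0.964 and 0.128). PEMT on the other side, which encodes an enzyme of phosphatidylcholine synthesis, rose in LM2 by 0.73 ± 0.19 (edgeR adjusted p = 0.00179) and was not called in MDA-MB-231 (0.16 ± 0.19, edgeR adjusted p = 0.589). Beside CRABP2 (chr1:156699606-156705784), NES was not called, and ISG20L2 fell in MDA-MB-231 by 0.42 ± 0.07 (edgeR adjusted p = 2.94e-05), against the direction of CRABP2. LINC01124, 769 bases from SP5 (chr2:170715337-170718078), had 197 reads in all. Its call in MDA-MB-231 (1.12 ± 0.39, edgeR adjusted p = 0.0275) ended in 6 of 14 alternative fits, and its value in LM2 was -0.30 ± 0.40 (edgeR adjusted p = 0.59). EIF2S2P4 and ERICH2-DT, also at SP5, were not called, and no neighbour of DCLK1 (chr13:35768652-36131939) passed the low-count filter. Whether reads of overlapping genes were separated by strand is not given in the sources used here.

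**Figure D4:**
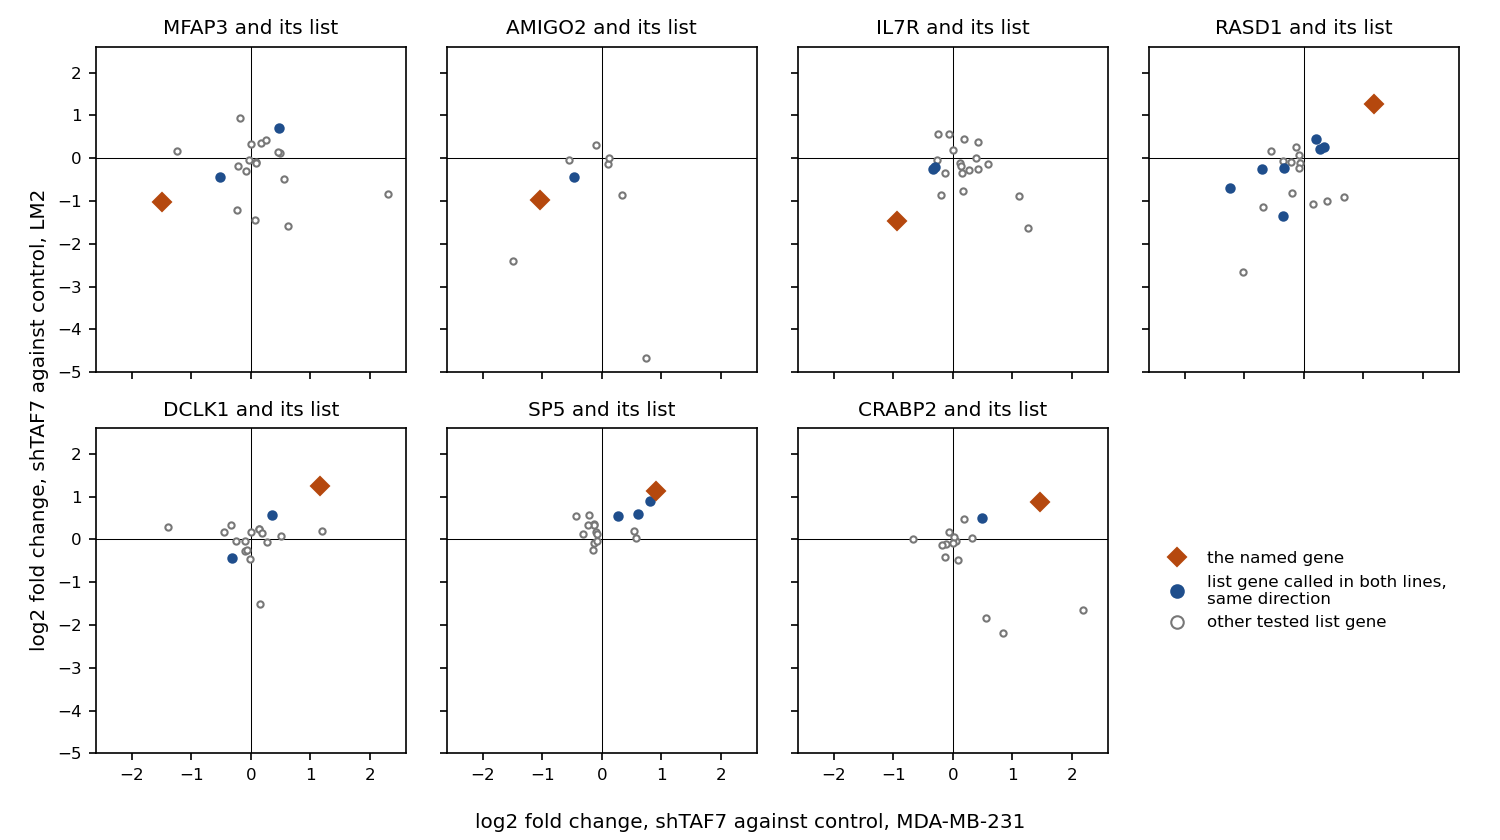
Log2 fold change of shTAF7 against control in MDA-MB-231 (horizontal) and LM2 (vertical) for each of the 7 genes (diamond) and the tested genes of its related list; filled circles were called in both lines in the same direction (edgeR adjusted p under 0.05), open circles are the other tested genes. In the SP5 panel the filled circle of AXIN2 (0.81 and 0.90) lies beside the diamond; in the RASD1 panel filled circles lie both above and below 0.

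To see whether relatives and pathway partners moved with them, a list of related genes was drawn up for each gene. The median log2 fold change of all 15923 genes, against which the lists are read, was 0.01 in MDA-MB-231 and -0.02 in LM2. Of all these genes 25.6% were called in MDA-MB-231, 41.3% in LM2 and 10.3% in both in the same direction, so a list with such shares does not stand apart from the rest. The SP5 list held SP factors and Wnt target genes, of which 16 of 25 could be tested. In MDA-MB-231 4 rose and 2 fell (median -0.11), a count of 6 that was 2 without control 2 and 3 without shTAF7 3. In LM2 7 rose and 0 fell (median 0.27), beside 21.8% higher and 19.4% lower of all genes. Called in both lines, 3 rose, 0 fell and 2 went in opposite directions, beside 6.17%, 4.11% and 3.88% of all genes. No set test was run.

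AXIN2, a feedback inhibitor that is a standard Wnt target, rose in both lines, from 0.57 to 0.985 FPKM in MDA-MB-231 and from 0.83 to 1.42 FPKM in LM2. Its log2 fold changes were 0.81 ± 0.21 and 0.90 ± 0.18 (edgeR adjusted p = 0.0026 and 7.96e-05), and they kept their call in every alternative fit. DKK1, a secreted Wnt inhibitor, rose in LM2 by 0.56 ± 0.07 (edgeR adjusted p = 1.32e-08). In MDA-MB-231 it rose by 0.28 ± 0.08 (edgeR adjusted p = 0.00523), with an adjusted p of 0.172 without control 2 and 0.0676 without shTAF7 3. The cyclin gene CCND1 went the opposite way in the lines, -0.23 ± 0.07 in MDA-MB-231 and 0.33 ± 0.07 in LM2 (edgeR adjusted p = 0.00998 and 0.000101), the former losing its call without control 2, control 3 or shTAF7 3 (adjusted p = 0.0953, 0.0947 and 0.0937). ZNRF3 of the same list also went in opposite directions, -0.43 ± 0.10 in MDA-MB-231 and 0.55 ± 0.12 in LM2 (edgeR adjusted p = 0.00142 and 0.000303). Its call in MDA-MB-231 ended only on log2 FPKM, and that in LM2 in 3 of 15 alternative fits. CTNNB1, the β-catenin gene, was not called in either line. Of the other SP factors, SP1 and SP4 were not called in either line. SP2 and SP3 were called in LM2 alone, SP2 at 0.35 ± 0.09 (edgeR adjusted p = 0.000983) and SP3 at 0.17 ± 0.07 (edgeR adjusted p = 0.043), a call that ended in 10 of 15 alternative fits.

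The CRABP2 list covered the retinoic acid pathway, with 15 of 25 genes tested: 3 rose and 0 fell in MDA-MB-231 (median 0.06), and 2 rose and 5 fell in LM2 (median -0.08). FABP5, the other carrier that delivers retinoic acid to nuclear receptors, rose in both lines by nearly the same amount, 0.49 ± 0.09 and 0.50 ± 0.09 (edgeR adjusted p = 3.8e-05 and 1.38e-05). Its mean went from 21.7 to 30.1 FPKM in MDA-MB-231 and from 20.7 to 26.7 FPKM in LM2. CRABP1, the closest relative, had no read. RDH11, a retinal reductase, rose in LM2 by 0.47 ± 0.07 (edgeR adjusted p = 5.68e-07), and TGM2, known as a retinoic acid-induced gene, was not called (-0.19 ± 0.07 and -0.13 ± 0.07, edgeR adjusted p = 0.0597 and 0.12). CYP26B1 and PLAAT4 were lower in LM2, at -0.40 ± 0.12 and -1.84 ± 0.38 (edgeR adjusted p = 0.00738 and 0.0001), against the direction of CRABP2. Neither was called in MDA-MB-231 (edgeR adjusted p = 0.475 and 0.446). Of the 5 tested receptor genes, RARA, RARB, RXRA and RXRB were not called in either line, and RARG fell in LM2 by 0.47 ± 0.09 (edgeR adjusted p = 5.53e-05). DHRS3, which encodes a retinal reductase, went in opposite directions, 0.84 ± 0.26 in MDA-MB-231 and -2.19 ± 0.22 in LM2 (edgeR adjusted p = 0.0137 and 4.19e-11), the former losing its call without control 2, control 3 or shTAF7 3 (adjusted p = 0.0734, 0.0947 and 0.101). STRA6, which encodes a receptor for the retinol carrier, had 111 reads and also went in opposite directions, 2.19 ± 0.48 and -1.64 ± 0.59 (edgeR adjusted p = 0.000551 and 0.0215), the latter losing its call in 6 of 15 alternative fits, among them those without any 1 of the LM2 libraries (adjusted p = 0.0724, 0.0777, 0.0902 and 0.0772).

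Glucocorticoid-induced genes and partners of RASD1 made up a list with 20 of 23 genes tested. In MDA-MB-231 5 rose and 7 fell (median -0.16), in LM2 4 rose and 9 fell (median -0.22). Of the 20 tested, both counts were above the shares over all genes, 25.6% and 41.3%, and no set test was run. The 12 called genes in MDA-MB-231 became 7 without control 2 and 7 without shTAF7 3. The glucocorticoid-induced genes did not move as 1 group. Of the whole list, 3 genes rose in both lines, the glucocorticoid-induced SGK1 and G protein subunit genes, and 4 fell in both. Called in LM2 alone, KLF15 and NFKBIA were lower, at -1.08 ± 0.17 and -0.81 ± 0.09 (edgeR adjusted p = 6.61e-07 and 4.46e-10). FKBP5 was higher there, at 0.26 ± 0.07 (edgeR adjusted p = 0.00279), and was not called in MDA-MB-231 either. TSC22D3 fell in both (-0.35 ± 0.13 and -1.34 ± 0.10, edgeR adjusted p = 0.0392 and 1.45e-15), against the direction of RASD1. So did CRISPLD2 (-1.23 ± 0.30 and -0.69 ± 0.24, edgeR adjusted p = 0.00153 and 0.0176). The MDA-MB-231 call of TSC22D3 was lost in 7 of 15 alternative fits, and the LM2 call of CRISPLD2 in 4 of 15. The phosphatase gene DUSP1 fell in both lines, by 0.70 ± 0.07 and 0.25 ± 0.07 (edgeR adjusted p = 2.49e-10 and 0.0023). The kinase gene SGK1 rose in both, by 0.35 ± 0.09 and 0.26 ± 0.08 (edgeR adjusted p = 0.00205 and 0.00746), with adjusted p = 0.13 and 0.133 in LM2 without control 3 and without shTAF7 2, and 0.284 and 0.286 there on log2 FPKM. The transcription factor genes KLF9 and CEBPD rose in MDA-MB-231 by 0.39 ± 0.11 and 0.67 ± 0.16 (edgeR adjusted p = 0.00493 and 0.00111) and fell in LM2 by 1.01 ± 0.11 and 0.91 ± 0.15 (edgeR adjusted p = 5e-10 and 3.66e-06). Their rise was not called without control 2 for KLF9 (adjusted p = 0.0977) and without shTAF7 3 for CEBPD (0.40, adjusted p = 0.156). The glucocorticoid receptor gene NR3C1 fell in MDA-MB-231 by 0.34 ± 0.07 (edgeR adjusted p = 0.000272). In LM2 it fell by 0.22 ± 0.07 (edgeR adjusted p = 0.0095), which became 0.0561 without control 3, 0.0779 without shTAF7 3 and 0.0566 without the low-count filter. RASD2, the closest relative of RASD1, had 116 reads in all and went from a mean of 0.495 to 0.24 FPKM in MDA-MB-231 (edgeR adjusted p = 0.0745). In LM2 it went from 0.165 to 0.025 FPKM (edgeR adjusted p = 0.00755, and 0.144 without shTAF7 3). Of the G protein subunits, GNB1 was not called, and GNB2 rose in both lines, by 0.20 ± 0.07 and 0.44 ± 0.07 (edgeR adjusted p = 0.0243 and 2e-06), the former in 10 of 15 alternative fits and not without control 2, control 3 or shTAF7 3 (adjusted p = 0.334, 0.0694 and 0.133).

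Of the doublecortin family and microtubule-associated proteins in the DCLK1 list, 18 of 24 were tested. In MDA-MB-231 2 rose and 3 fell (median -0.01), and in LM2 4 rose and 2 fell (median 0.12), a count of 6 that was 3 without control 2 and 3 without shTAF7 3. STMN1, which encodes stathmin, a protein that destabilises microtubules, rose in both lines by 0.36 ± 0.07 and 0.58 ± 0.07 (edgeR adjusted p = 9.69e-05 and 3.51e-09). MAP1B, which encodes a protein that binds microtubules, fell by 0.32 ± 0.07 and 0.44 ± 0.07 (edgeR adjusted p = 0.000489 and 1.32e-06). DCLK2, the other detected member of the kinase family, was not called (edgeR adjusted p = 0.351 and 0.812), and DCLK3 had 3 reads.

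The IL7R list, the receptor pathway of IL-7 and TSLP, had 20 of 22 genes tested. In MDA-MB-231 3 rose and 3 fell (median 0.15), a count of 6 that was 2 without control 2. In LM2 4 rose and 7 fell (median -0.19), a count of 11, beside 41.3% of all genes, that was 7 without control 3, shTAF7 2 or shTAF7 3. IL2RG, the chain that pairs with IL7R in the IL-7 receptor, had 2 reads over all libraries, and the ligand TSLP had 4. IL7 was not called (edgeR adjusted p = 0.339 and 0.997). CRLF2, the chain that pairs with IL7R in the TSLP receptor, had 164 reads and went in opposite directions, 1.26 ± 0.37 in MDA-MB-231 and -1.64 ± 0.58 in LM2 (edgeR adjusted p = 0.00788 and 0.0199). The first value lost its call without control 2 or shTAF7 2 (adjusted p = 0.108 and 0.088), and the second without control 2, shTAF7 2 or shTAF7 3 (adjusted p = 0.178, 0.0857 and 0.0747). The kinase gene PIM1, a cytokine target, fell in LM2 by 0.36 ± 0.08 (edgeR adjusted p = 0.000189).

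Microfibril and elastic fibre genes formed the MFAP3 list, with 19 of 22 tested: 4 rose and 1 fell in MDA-MB-231 (median 0.08), and 1 rose and 7 fell in LM2 (median -0.08). EFEMP1, which encodes the elastic fibre protein fibulin-3, fell in both lines by 0.51 ± 0.10 and 0.43 ± 0.07 (edgeR adjusted p = 7.05e-05 and 3.24e-06). LOXL1, which encodes a relative of lysyl oxidase, rose in both, by 0.48 ± 0.17 and 0.71 ± 0.15 (edgeR adjusted p = 0.027 and 0.000143), the former losing its call in 6 of 15 alternative fits, among them those without control 2, control 3 or shTAF7 3 (adjusted p = 0.115, 0.132 and 0.287). LOX, which encodes the enzyme that cross-links collagen and elastin, rose in MDA-MB-231 by 0.55 ± 0.08 and fell in LM2 by 0.49 ± 0.07 (edgeR adjusted p = 2.71e-07 and 9.91e-08). LOXL2, at 38.6 to 45.7 FPKM the most abundant of the list, was not called, and neither was MFAP3L, the closest relative of MFAP3 (edgeR adjusted p = 0.354 in both lines). LTBP4 rose in MDA-MB-231 by 0.46 ± 0.07 (edgeR adjusted p = 2.21e-06).

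The AMIGO2 list, leucine-rich repeat adhesion genes of neurons, was mostly silent, with 8 of 26 genes tested. In MDA-MB-231 0 rose and 1 fell (median -0.0032), in LM2 0 rose and 3 fell (median -0.29), a count that was 1 without control 3. The count in MDA-MB-231 was 2 without shTAF7 2. FLRT2, which encodes a ligand of UNC5 receptors, fell in both lines by 0.47 ± 0.10 and 0.43 ± 0.10 (edgeR adjusted p = 0.000367 and 0.000371). On log2 FPKM its call in MDA-MB-231 ended (limma adjusted p = 0.0638 and 0.0988 with pseudocounts of 1 and 0.1). AMIGO1 was not called (edgeR adjusted p = 0.626 and 0.444), and AMIGO3 had 1 read.

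Across the 7 lists the genes called in both lines in one direction numbered between 1 and 7 per list, beside 10.3% of all genes tested. The share was highest in the RASD1 list, with 3 higher and 4 lower of 20 tested, and lowest in the CRABP2 list, with 1 of 15. In each list some tested genes went in opposite directions or were not called. The markers of endothelium and fibroblasts summed to 0.95 to 3.78 FPKM per library and were highest in the LM2 controls (3.16 to 3.78), mainly through COL1A1; their part in the values above was not tested.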

How the data were processed

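The authors deposited a table of read counts per gene, whole numbers without normalization, and a table of FPKM values, scaled to gene length and library total, as judged from the values. STAR 2.7.10a and the build hg19 are named in the submitters' processing notes, with no role. Which program assigned reads to genes, with which annotation and strand setting, is not given in the sources used here. For 1695 genes, the ratio of deposited counts to deposited FPKM followed the library totals within 0.000153%.

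Counts were filtered with filterByExpr, scaled with TMM and fitted by edgeR's quasi-likelihood test with a mean for each of the 4 groups (R 4.3.3, edgeR 4.0.16), which left 4 residual degrees of freedom over 8 libraries. A gene was called when its p, adjusted by Benjamini-Hochberg over all 15923 genes tested, was under 0.05. The comparisons were shTAF7 against control in each line, the difference between these effects, and LM2 against MDA-MB-231 averaged over both hairpins. CPM used TMM-scaled library sizes. The code was tested on simulated data. Libraries of a group differed by more than counting noise (chi-square per degree of freedom between 2.34 and 7.26), so none was a copy. Alternatives were DESeq2 1.42.0, RLE size factors in edgeR, a fit without the low-count filter, limma 3.58.1 on log2 FPKM with pseudocounts of 1 and 0.1, the replicate number as a block, the libraries of 1 line alone, and each library left out.

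The 7 genes and the lists were chosen with earlier results of these data known. The rule for named genes took the 7 genes and TAF7, the 3 genes closest to each by correlation, neighbours, direct relatives and the 3 most abundant genes of each list, and the 3 genes per direction with the largest change in both lines. CYRIA, FAM24B, AXIN2, ZNRF3, EFEMP1, FLRT2, MAP1B, NR3C1, SGK1, TSC22D3, CRISPLD2, KLF9, CEBPD, KLF15, NFKBIA, FKBP5, LOXL1, DHRS3, STRA6, CYP26B1, PLAAT4 and the retinoid receptor genes were named outside it, after their values were seen. The calls of KLF15, NFKBIA, FKBP5, CYP26B1 and PLAAT4 were not followed through the alternative fits. A gene that the correlation rule picked is not reported here. Neighbours, positions and promoters come from RefSeq on GRCh38.p14, another build than the deposited files, and were joined by gene symbol alone; all 7 genes matched.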

Additional observations from a re-analysis of the deposited data

How the results depend on the processing

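The line differences of the 7 genes kept their direction and their side of the threshold in 96 of 98 alternative values; the exceptions were SP5 on log2 FPKM. Small differences between the knockdown effects changed sign: AMIGO2 to -0.003294 and -0.04266 on log2 FPKM (pseudocounts 1 and 0.1) and to -0.02867 without MDA-MB-231 shTAF7 3; DCLK1 to -0.03867 without that library; RASD1 to -0.02081 on log2 FPKM (pseudocount 0.1), -0.2171 without MDA-MB-231 control 3 and -0.04355 without LM2 shTAF7 3. With each library left out these ranged from -0.02867 to 0.1642, from -0.03867 to 0.2086 and from -0.2171 to 0.3812. Genes called in the same direction in both lines numbered 1637, and 1084 and 1059 on log2 FPKM with pseudocounts of 1 and 0.1. With each library left out they numbered 840 to 1801, and those called in MDA-MB-231 (4070) 2126 to 4400, with 2126, 2288 and 2371 without control 2, control 3 and shTAF7 3. The cause was not tested. On log2 FPKM, without TMM, 41.1% and 42.2% of the genes called in both lines were higher instead of 60%, 32.0% and 31.9% instead of 52.9% in LM2, and 32.3% and 32.0% instead of 54.0% for the difference between the knockdown effects. The median of all genes then moved to -0.128 in LM2 and -0.104 for that difference (pseudocount 0.1). Of 74 named calls of related or neighbouring genes, 42 held in all alternatives that gave an adjusted p and 29 were lost without some library.

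Replicate numbers 2 and 3 occur in every group, but same-numbered libraries did not deviate together (correlations between -0.06 and 0.02 over 15923 genes), so the libraries share only a number. With the replicate number as a block, 4053 genes were called in MDA-MB-231, 6554 in LM2, 4128 for the difference between the knockdown effects and 11331 between the lines, and 1634 in the same direction in both lines. With 2 libraries per group, SP5, RASD1 and CRABP2 in the MDA-MB-231 controls rested on 61 to 107 reads per library, which limits their precision.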
